A study of Mus musculus with 11 samples.

Results

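Transcripts of 9 genes for helix-loop-helix proteins were followed in mouse oligodendrocyte lineage cells grown in culture: the lineage activators Olig1 and Olig2, the E proteins Tcf4, Tcf12 and Tcf3, and the inhibitors Id1, Id2, Id3 and Id4. The genes were taken by name, and every probe set that the platform annotation assigns to exactly 1 of them was used, which gave 24 of the 45101 probe sets of the Affymetrix Mouse Genome 430 2.0 array. Of these 24, 20 read at least 200 on at least 3 arrays and were tested, and each of the 9 genes kept at least 1. The 11 arrays comprised 3 with knockout oligodendrocytes, 4 with control oligodendrocytes and 4 with oligodendrocyte progenitor cells. The knockout cells carried 2 floxed alleles of Myrf (MRF fl/fl), the transcription factor gene that drives late myelin genes, together with Olig2 wt/cre. Control cells came from littermates labelled MRF wt/fl with Olig2 wt/cre. Brains were taken at postnatal day 7, microglia were removed on BSL1, a lectin, and the cells that bound an antibody against the PDGF receptor alpha were grown serum-free with 2% B-27. Both oligodendrocyte groups then spent 4 days in thyroid hormone (T3, 40 ng/ml) without PDGF, and the progenitors spent 6 days in PDGF-AA at 10 ng/ml. The labels call the progenitors control cells and give no genotype for them.

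This design bears on the genes described. All oligodendrocytes, knockout and control, carried Cre at 1 of the 2 Olig2 alleles, and the control cells had 1 floxed copy of Myrf. Because the labels do not give the Olig2 alleles of the progenitors, Olig2 allele number and culture state cannot be told apart wherever oligodendrocytes are set against progenitors. In bulk RNA of a culture, fewer cells of one type and less RNA per cell cannot be told apart either. No label says whether replicates came from separate cultures or animals. The p-values therefore reflect only how much these samples vary, and that variation may be technical.

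Basic helix-loop-helix proteins bind DNA as dimers at a short element called the E-box. Olig1 and Olig2 are found in the nervous system and pair with broadly expressed E proteins, of which Tcf4, Tcf12 and Tcf3 are the mammalian genes. The gene Tcf4 is not Tcf7l2, the Wnt effector that shares its protein nickname. Id proteins keep the dimerization domain but lack the basic region, so an E protein bound by an Id protein cannot bind DNA. In the oligodendrocyte lineage, Olig2 is needed for specification, Olig1 for maturation, and Id2 and Id4 are known for holding back differentiation in culture. Transcription of Id genes is a standard response to bone morphogenetic proteins (BMPs) through Smad proteins.

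Promoter sequences are shown for the Id genes that had one in the RefSeq table used here, because the largest differences between groups were in this family. Each sequence is the 250 bases before the annotated start in GRCm38.p6, written 5′ to 3′ on the strand of the gene, with E-boxes (CANNTG) in capitals. Promoters were read for 6 of the 9 genes, in a search of that table that left out a chromosome. The count therefore does not describe the whole table. Those of Id2, Id3 and Id4 lie at chr12:25096093-25096342 on the minus strand, chr4:136143572-136143821 on the plus strand and chr13:48260866-48261115 on the plus strand.
Id2: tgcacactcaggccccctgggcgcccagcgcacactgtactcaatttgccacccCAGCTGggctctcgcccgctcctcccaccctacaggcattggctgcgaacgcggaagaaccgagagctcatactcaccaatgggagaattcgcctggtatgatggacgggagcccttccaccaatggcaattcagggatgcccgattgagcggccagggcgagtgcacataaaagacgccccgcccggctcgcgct
Id3: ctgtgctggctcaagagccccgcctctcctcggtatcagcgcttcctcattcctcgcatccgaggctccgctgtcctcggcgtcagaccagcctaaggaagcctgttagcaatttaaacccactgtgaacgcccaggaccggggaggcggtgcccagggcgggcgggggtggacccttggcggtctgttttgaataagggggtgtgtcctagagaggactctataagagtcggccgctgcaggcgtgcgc
Id4: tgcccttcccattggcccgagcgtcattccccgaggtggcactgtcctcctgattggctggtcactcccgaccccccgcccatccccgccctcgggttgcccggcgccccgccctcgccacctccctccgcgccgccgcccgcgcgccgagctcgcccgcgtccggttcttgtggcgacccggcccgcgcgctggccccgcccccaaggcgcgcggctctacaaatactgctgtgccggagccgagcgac

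The Id2 window held 1 E-box, of the form CAGCTG, which begins 196 bases before the start. The windows of Id3 and Id4 held 0. Of 32851 promoters of the same length, 66.2% held a CANNTG and 13% a CAGCTG, searched on both strands. Sequences that Smad proteins are known to bind were searched in the same way: GGCGCC was present once in the Id2 window and once in that of Id4, against 9.59% of all promoters with at least 1, and CAGAC was present 2 times in the Id3 window, against 42.2% of all promoters. These matches describe the letters in the windows and are not measured binding sites.

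Signals were those of the MAS 5.0 software after scaling of every array to a trimmed mean of 500. The ratio of the 5′ to the 3′ Gapdh control probe sets, a measure of how much of a transcript's length was labelled, lay between 1.26 and 1.41 on the 7 oligodendrocyte arrays but was 0.332, 1.23, 1.15 and 0.120 on progenitor arrays 1 to 4. Progenitor array 2 also stood apart from the other 3 in marker signals: its cell cycle genes (13 measured) had a mean of 10.6 on the log2 scale, against 12.7 to 13.0, and its Myrf signal was 6848 against 752.1 to 1135. The targeted gene Myrf read 1904 to 2849 on the knockout arrays and 6215 to 7517 on the control arrays. Gfap, the main intermediate filament of astrocytes, averaged 16237 ± 792 (SD, n = 3) on knockout, 15744 ± 1100 (SD, n = 4) on control and 80.7 ± 16.8 (SD, n = 4) on progenitor arrays. Of 10 astrocyte markers, 9 read at least 200 on each oligodendrocyte array, whereas 0 of 6 microglial and 0 of 5 endothelial markers did so on any array. The myelin gene Mbp read 15944 or more on all 7 oligodendrocyte arrays, and 1338, 19380, 15042 and 1587 on progenitor arrays 1 to 4. Of the 7 oligodendrocyte markers tested, Mbp among them, 3 were lower and 0 higher in knockout than in control cells (limma, adjusted p under 0.05). Over all genes 3.88% were lower and 3.64% higher. The 3 were Mag, with means of 442 in knockout and 13198 in control cells, Mobp (541 and 18181) and Mog (46.4 and 2180). Mog, with a progenitor mean of 41.1, passed the filter only through control arrays, so its direction was fixed by the filter.

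Id1, Id3 and Id4 were much higher in oligodendrocytes than in progenitors. On the brightest probe set of each gene, Olig1, Olig2 and the 3 E protein genes were lower in control oligodendrocytes than in progenitors. Of 21 alternative settings, 1 lost this call for Olig1, 2 for Olig2 and 1 for Tcf3. Not all other probe sets of Tcf4, Tcf12 and Tcf3 passed. The low 5′ to 3′ ratios of progenitor arrays 1 and 4 also limit these comparisons. Between control oligodendrocytes and progenitors, 3 of the 9 genes were higher and 5 lower at an adjusted p under 0.05 (limma, Benjamini-Hochberg over 10069 genes); across all genes 54% were called, 24.4% higher and 29.6% lower. Between knockout oligodendrocytes and progenitors, 4 were higher and 2 lower, where 50.6% of all genes were called, 23.8% higher and 26.8% lower. Against such a background a count of called genes says little, so sizes and individual arrays are given for each gene. Both comparisons use the same progenitor arrays and are not independent. Id1 and Id4 are counted among the higher genes in both. Id4, however, passed the filter only through oligodendrocyte arrays, and Id1 through these and progenitor array 2 alone. Between knockout and control oligodendrocytes, 0 of the 9 genes passed in the fit of all 11 arrays (7.53% of all genes did, 3.64% higher and 3.88% lower), although 3 were higher at an unadjusted p under 0.05, as were 12.3% of all genes. No label says that the replicate numbers pair knockout and control arrays. They were taken to do so from these data, as deviations of arrays with the same number correlated at 0.242, 0.241 and 0.214. Knockout array 3 correlated more with control array 4 (0.328). With the number as a block 5 of the 9 genes passed, Olig2, Id1, Id2, Id3 and Id4, all of them higher in knockout cells. Across all genes 22.2% were called and 13% were higher. All results with the replicate block rest on this pairing. The blocked fit uses only the arrays of the 2 groups and leaves out control array 4, which has no partner.

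**Figure D1:**
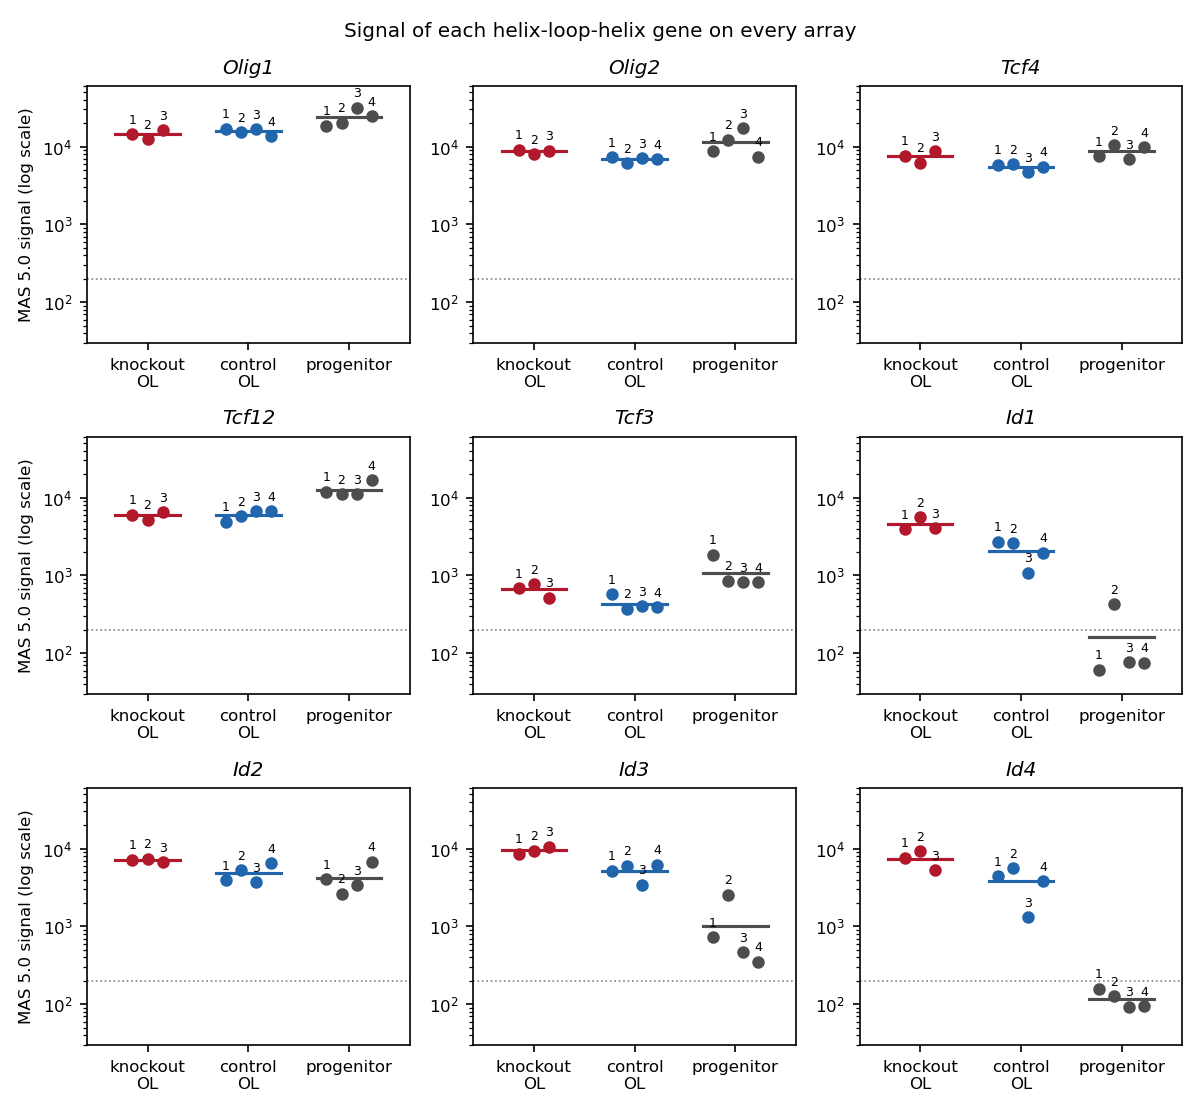
MAS 5.0 signal (log axis) of the brightest tested probe set of each of the 9 genes on the 3 knockout, 4 control and 4 progenitor arrays, 1 point per array. Id1, Id3 and Id4 separate both oligodendrocyte groups from progenitors, with progenitor array 2 the highest of its group for Id1 at 428.9 and for Id3 at 2568, while Olig1 and Tcf12 lie lower in both oligodendrocyte groups than in progenitors, with no overlap.

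Olig1, the lineage factor needed for maturation, was read by a single probe set, 1416149_at. Its signal was 14358, 12466 and 16212 on the knockout arrays, 16991, 15308, 16793 and 13663 on the control arrays, and 18497, 20382, 31629 and 24389 on the progenitor arrays. Every oligodendrocyte array lay below every progenitor array, and knockout and control arrays overlapped. The difference of control oligodendrocytes from progenitors was −0.57 ± 0.16 on the log2(signal + 16) scale (SE; limma, adjusted p = 0.0113), and that of knockout oligodendrocytes was −0.70 (adjusted p = 0.00597). Both calls were lost after quantile normalization, with differences of −0.08 and −0.08 and adjusted p-values of 0.397 and 0.42. Olig1 lay at 56.4% to 71.8% of the brightest probe set of its array over the 11 arrays. Knockout minus control was −0.13 (95% interval −0.51 to 0.25, limma adjusted p = 0.726).

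Olig2, the factor that specifies the lineage and the gene that carries Cre here, was also read by 1 probe set, 1416232_at. Knockout arrays gave 9170, 8011 and 8894, control arrays 7283, 6097, 7081 and 6848, and progenitor arrays 8747, 12307, 17351 and 7410. The 3 knockout arrays all lay above the 4 control arrays, and the progenitors spanned a wide range that began just above the controls. Control cells were lower than progenitors by a log2 difference of −0.67 ± 0.22 (limma, adjusted p = 0.022), which did not pass without control array 2 (0.0598) or after quantile normalization (0.0515). The difference of knockout cells from progenitors, −0.32, did not pass (limma, adjusted p = 0.274), and without progenitor arrays 1 and 4, those with low 5′ to 3′ ratios, it was −0.75 (adjusted p = 0.00532). Knockout minus control was 0.35 ± 0.24 (limma, adjusted p = 0.439), and with the replicate block it was 0.35 (adjusted p = 0.0426). Whether this probe set reads transcripts of the Cre-carrying allele is not given in the sources used here. The order of the 3 group means was progenitors, knockout, control, and in the fit of all arrays the knockout mean was not apart from either of the others.

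Tcf4, the E protein known as ITF2, was covered by 6 probe sets, of which 5 were tested. The brightest, 1416723_at, read 7601, 6246 and 8772 on knockout arrays, 5849, 5967, 4706 and 5481 on control arrays, and 7566, 10468, 6920 and 9852 on progenitor arrays. The 4 control arrays lay below all others, and knockout and progenitor arrays overlapped. Control cells were lower than progenitors by a log2 difference of −0.64 ± 0.17 (limma, adjusted p = 0.00676). Between knockout and control cells the log2 difference was 0.45 ± 0.18 (95% interval 0.05 to 0.84; limma, adjusted p = 0.173, and 0.103 with the replicate block). The other 4 tested probe sets had knockout minus control differences of 0.61 to 0.74, with no overlap of the arrays, and those 4 passed with the replicate block (adjusted p from 0.0147 to 0.0194). The brightest one therefore gave the smallest difference of the 5. The probe set under the filter, 1416725_at, read 32.7 to 76.6 over the 11 arrays.

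The Tcf4 probe sets disagreed on the progenitors. While 1416723_at and 1434148_at had about the same mean on progenitor arrays 2 and 3 as on arrays 1 and 4 (ratios of 0.998 and 0.972), the other 3 were 2.11 to 3.40 times higher on arrays 2 and 3. For 1434149_at the progenitor signals were 1022, 4246, 2509 and 965.9. Its control minus progenitor difference was −0.37 (limma, adjusted p = 0.447), without arrays 1 and 4 it was −1.22 (adjusted p = 0.00314), and without array 2 it was 0.03 (adjusted p = 0.927). With all 11 arrays the fitted differences of the 5 tested probe sets were all negative, and the 2 with ratios near 1 passed.

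Tcf12, the E protein HEB, had 5 probe sets, of which 4 were tested. Its brightest, 1427670_a_at, read 5992, 5205 and 6531 on knockout arrays, 4884, 5778, 6684 and 6635 on control arrays, and 11850, 11105, 11041 and 16751 on progenitor arrays. Knockout and control arrays were intermixed, and all progenitor arrays lay above them. The log2 difference from progenitors was −1.07 ± 0.16 for control cells (limma, adjusted p = 0.00029), a 2.10-fold lower signal, and −1.08 for knockout cells (adjusted p = 0.000457). Its knockout minus control difference was −0.02, with a 95% interval of −0.40 to 0.37 and an adjusted p of 0.974 in the limma fit. Among the 9 genes this was the difference nearest to 0, and its sign changed under 6 alternative settings.

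The second Tcf12 probe set, 1421908_a_at, did not follow the first. It read 4069 to 4571 on all 7 oligodendrocyte arrays, and 1678, 6643, 5369 and 1653 on the progenitor arrays, so progenitor arrays 1 and 4 lay below the oligodendrocytes and arrays 2 and 3 above. Its control minus progenitor difference was 0.44 (limma, adjusted p = 0.368) with all arrays, −0.48 (adjusted p = 0.0165) without progenitor arrays 1 and 4, and 0.79 (adjusted p = 0.0558) without progenitor array 2. The dim 1446294_at had a control minus progenitor difference of −1.22 (adjusted p = 0.000921). Another dim probe set, 1439619_at, passed the filter only through the 4 progenitor arrays, at 231.7 to 426, and read 40.4 to 131.1 on oligodendrocyte arrays, so its direction was fixed by the filter and supports nothing. The untested probe set 1439209_at read 188.5 to 280.4 on progenitor arrays and 7.8 to 90.5 on oligodendrocyte arrays.

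**Figure D2:**
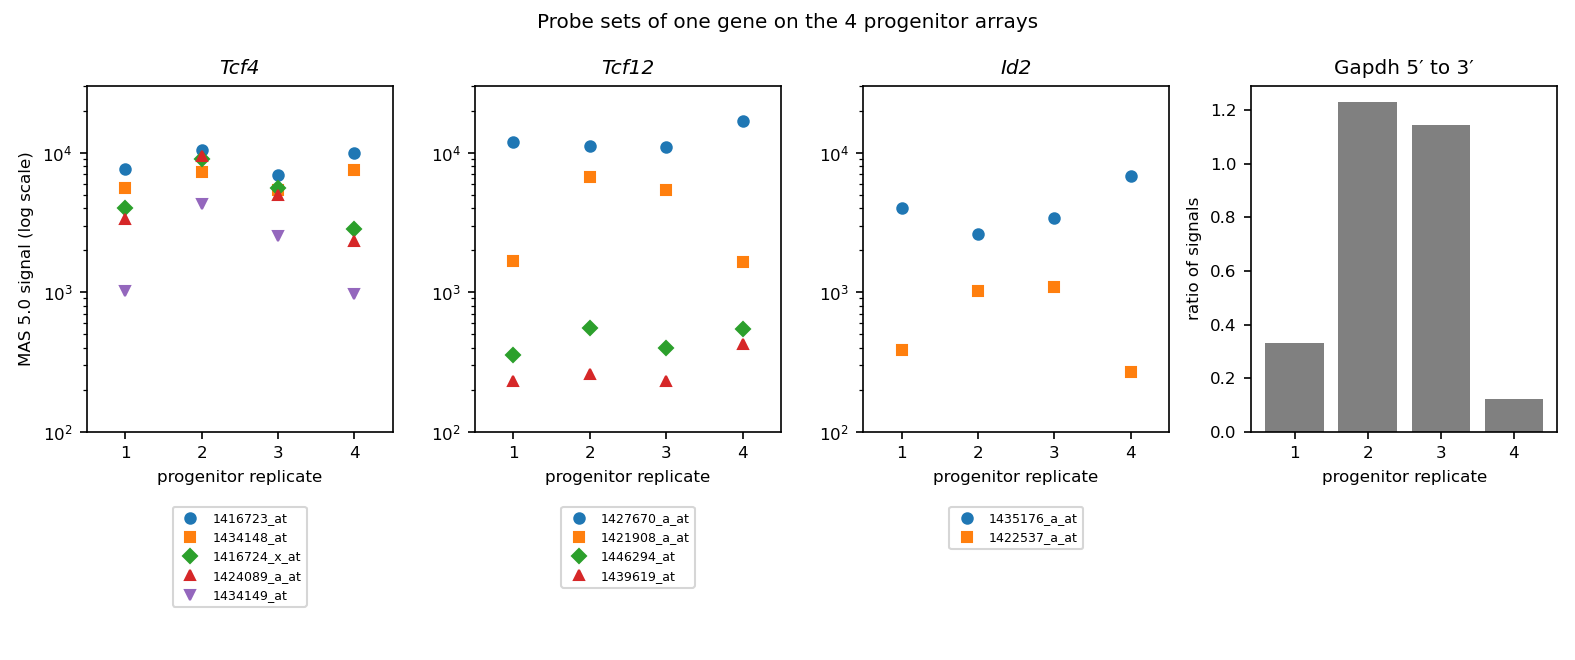
MAS 5.0 signal (log axis) of the tested probe sets of Tcf4, Tcf12 and Id2 on progenitor replicates 1 to 4, 1 point per array, and, as bars from 0, the 5′ to 3′ ratio of the Gapdh control probe sets. On arrays 1 and 4, whose ratios are 0.332 and 0.120, Tcf12 1421908_a_at reads 1678 and 1653 while 1427670_a_at reads 11850 and 16751.

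Tcf3 encodes the E2A proteins, and 2 of its 3 probe sets were tested. For 1426297_at the knockout arrays read 689, 773.1 and 520.4, the control arrays 572.6, 373.5, 400.7 and 390.9, and the progenitor arrays 1850, 857.6, 823 and 825.5. The progenitor arrays all lay above the oligodendrocyte arrays, with array 1 well above the other 3. Control cells were lower than progenitors by a log2 difference of −1.22 ± 0.27 (limma, adjusted p = 0.00264). The knockout minus progenitor difference of −0.63 (adjusted p = 0.0867) and the knockout minus control difference of 0.59 ± 0.29 (adjusted p = 0.267, and 0.0881 with the replicate block) did not pass. The other tested probe set, 1427764_a_at, had a control minus progenitor difference of 0.26 (limma, adjusted p = 0.618), with progenitor signals of 238.2, 367.6, 392.7 and 72. When the log2 signals of both were averaged, the control minus progenitor difference of Tcf3 was −0.48 and no longer passed (adjusted p = 0.161). The remaining one, 1452542_x_at, read 53.4 to 166.1 and was not tested.

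Between control cells and progenitors, the tested probe sets of Tcf12 and of Tcf3 had fitted differences of both signs, and those of Tcf4, Id2 and Id4 had 1 sign each. The opposite values of Tcf12 and Tcf3 did not pass. Of the 20 tested probe sets, 14 passed between control oligodendrocytes and progenitors, 6 higher and 8 lower (53.3% of all 18568 tested probe sets passed). The ratio of the mean of progenitor arrays 2 and 3 to that of arrays 1 and 4 ranged from 0.557 for Id2 1435176_a_at to 3.69 for Id1. This ratio was above 2 in 9 of the 20 probe sets. The Gapdh 5′ to 3′ ratio was also higher on arrays 2 and 3, at 1.23 and 1.15, than on arrays 1 and 4, at 0.332 and 0.120. Other control probe sets were mixed for array 3. Its dap ratio was 0.223, below the 0.389 to 0.476 of the oligodendrocyte arrays. Its actin ratio was 0.806, within their 0.713 to 0.851. The part of these ratios in the differences was not tested. For Id1 and Id3 the high ratio of signals came from array 2 alone, as array 3 was close to arrays 1 and 4.

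Id1 had 1 probe set, 1425895_a_at. It read 3928, 5628 and 4056 on knockout arrays, 2712, 2580, 1078 and 1962 on control arrays, and 61.6, 428.9, 77.4 and 75.5 on progenitor arrays. The 3 groups did not overlap: knockout arrays were the highest and progenitors the lowest. Control cells exceeded progenitors by a log2 difference of 3.92 ± 0.49 (limma, adjusted p = 6.95e-05), which is 15.1-fold, and knockout cells by 5.10 ± 0.53 (adjusted p = 2.08e-05), which is 34.3-fold. Without progenitor array 2 these were 22.7-fold and 51.5-fold, and without progenitor arrays 1 and 4 they were 9.71-fold and 22.0-fold. As 3 of the 4 progenitor signals lay under 200, setting those to 200 gave at least 7.65-fold for control and at least 17.4-fold for knockout cells. Without the oligodendrocyte arrays this probe set would not have passed the filter. Knockout minus control was 1.18 ± 0.53 (2.27-fold; limma, adjusted p = 0.223), and 1.18 with the replicate block (adjusted p = 0.0208).

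Id2 was the member of its family with the smallest differences on its brightest probe set. Signals of 1435176_a_at were 7230, 7395 and 6703 on knockout arrays, 3925, 5270, 3717 and 6457 on control arrays, and 4015, 2629, 3386 and 6775 on progenitor arrays. Knockout arrays lay above all control arrays, and progenitor array 4 lay among the knockout values. The difference between control cells and progenitors was 0.26 (95% interval −0.32 to 0.83; limma, adjusted p = 0.426). Knockout cells were higher than progenitors by 0.85 ± 0.29 (adjusted p = 0.0267), a call that was lost without any 1 of the knockout arrays (0.0544 to 0.0784) or without progenitor array 3 (0.0599). The knockout minus control difference was 0.59 ± 0.29 (adjusted p = 0.263), and 0.74 with the replicate block (adjusted p = 0.0103).

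The second Id2 probe set had larger differences from progenitors than the first in the fit of all arrays. For 1422537_a_at the signals were 3018, 4811 and 3299 on knockout arrays, 1791, 2200, 851.8 and 1967 on control arrays, and 387.5, 1011, 1083 and 268.1 on progenitor arrays. Knockout arrays were the highest, and control array 3 fell among the progenitors. Its log2 difference from progenitors was 1.43 for control cells (limma, adjusted p = 0.0176) and 2.60 for knockout cells (adjusted p = 0.00112). Without progenitor arrays 1 and 4 these were 0.61 (adjusted p = 0.18), which no longer passed, and 1.78 (adjusted p = 0.00426). With the mean of both probe sets Id2 passed between control cells and progenitors, at 0.85 (adjusted p = 0.007). Another probe set, 1453596_at, read 42 to 219.6 and was not tested.

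Id3 was read by 1416630_at alone. Its signals were 8544, 9350 and 10562 on knockout arrays, 5197, 6039, 3443 and 6229 on control arrays, and 724.4, 2568, 463.6 and 352.4 on progenitor arrays. As with Id1, the 3 groups did not overlap, control array 3 was the lowest control and progenitor array 2 the highest progenitor. The control minus progenitor difference was 2.74 ± 0.48 (6.70-fold; limma, adjusted p = 0.000631), and 10.1-fold without progenitor array 2. Knockout cells exceeded progenitors by 3.63 ± 0.51 (12.4-fold; adjusted p = 0.000163), and 18.6-fold without progenitor array 2. Knockout minus control was 0.89 ± 0.51 (adjusted p = 0.352), and 0.99 with the replicate block (adjusted p = 0.0188).

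Id4 had 3 tested probe sets, and its brightest had the largest fitted difference from progenitors among the probe sets that represent the 9 genes. This brightest probe set, 1423259_at, read 7605, 9227 and 5308 on knockout arrays, 4424, 5577, 1321 and 3833 on control arrays, and 157.7, 127.8, 93.5 and 94.6 on progenitor arrays. All progenitor arrays were below 200, control array 3 stood well below the other controls, and control array 2 overlapped the lowest knockout array. Control cells were higher than progenitors by 4.67 ± 0.38 (limma, adjusted p = 2.87e-06) and knockout cells by 5.77 ± 0.41 (adjusted p = 1.21e-06). These values correspond to 25.5-fold and 54.7-fold, but they rest on dim progenitor signals, and all 3 Id4 probe sets passed the filter only through the 7 oligodendrocyte arrays. With progenitor signals set to the filter value of 200, control cells were at least 15.6-fold and knockout cells at least 33.4-fold higher. The other 2 probe sets gave 12.2-fold and 16.1-fold for control cells, or at least 8.79-fold and 6.19-fold against 200. Knockout minus control was 1.10 ± 0.41 (2.14-fold; adjusted p = 0.142), 1.17 with the replicate block (adjusted p = 0.0229), and 0.66 (adjusted p = 0.24) without control array 3.

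The knockout mean was above the control mean for all 4 Id genes, without overlap of the arrays for 3 of them, and all 4 passed in the blocked fit and none in the fit of all arrays. Over the 9 genes, the knockout arrays lay wholly above the control arrays for 5, Olig2, Tcf4, Id1, Id2 and Id3, and wholly below for 0, where 17.4% of all genes lay above and 14.2% below. At the level of probe sets, 0 of 20 passed in the fit of all arrays (5.48% of all), and 12 of 20 with the replicate block, all of them higher (20.1% of all were called and 11.3% were higher). In the fit of the 2 oligodendrocyte groups without a block, which keeps control array 4, only Id1 and Id3 of the 9 genes passed (adjusted p = 0.029 and 0.0173; 15.8% of all genes called). Leaving out progenitor array 2 from the fit of all arrays also passed Id1 and Id3 (0.0161 and 0.0362), with unchanged differences, as that array enters this comparison only through the shared estimate of the spread.

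**Figure D3:**
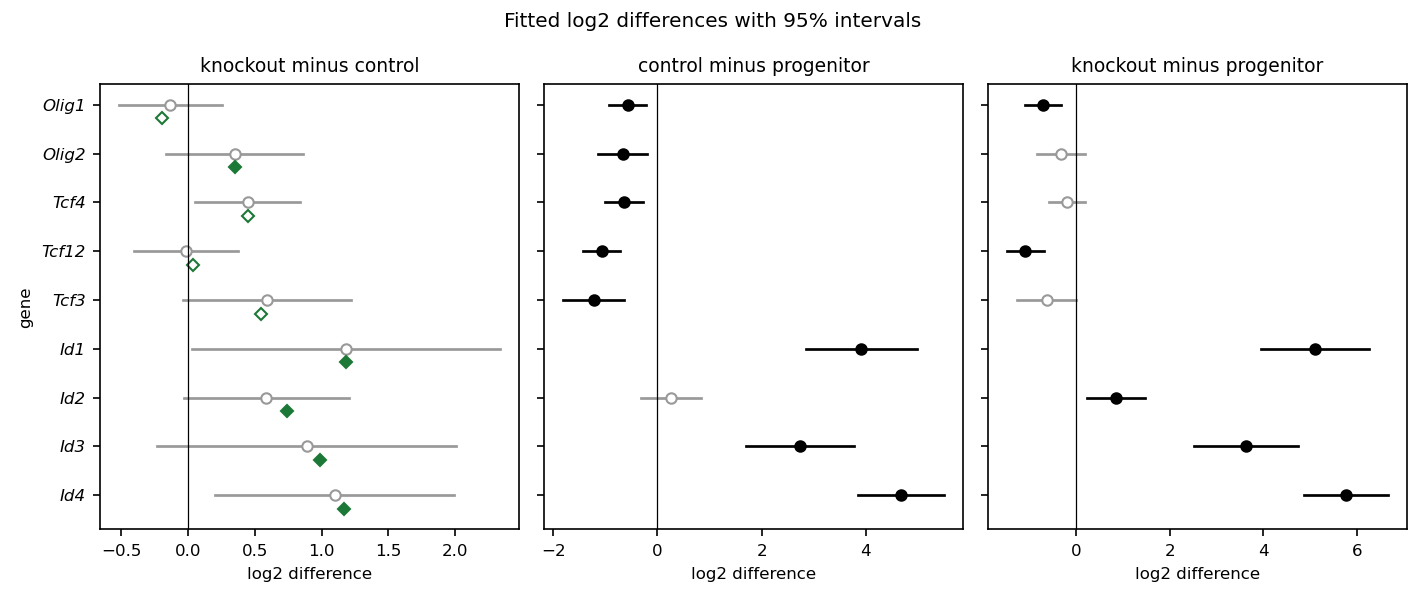
Fitted log2 differences with 95% intervals for the 9 genes in the 3 comparisons (filled black circles, adjusted p under 0.05; open grey circles, not), and, for knockout minus control, the blocked fit as green diamonds (filled where called). Against progenitors Id4 reaches 4.67 in control and 5.77 in knockout cells, and between knockout and control cells no black circle appears while 5 diamonds are filled.

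Over the 3 groups, astrocyte markers rose where the Id genes rose, and cell cycle genes fell. The summed signal of the 10 astrocyte markers was 86091 to 92470 on knockout arrays, 56523 to 77300 on control arrays and 5330 to 10739 on progenitor arrays. Control array 3, the lowest control for Id1, Id2, Id3 and Id4, was also the lowest for astrocyte markers, at 56523 against 68013 or more, and the highest for cell cycle genes, with a mean of 10.3 on the log2 scale against 8.68 to 9.46. All 9 tested astrocyte markers were higher in both oligodendrocyte groups than in progenitors. Over all genes 24.4% were higher in control and 23.8% in knockout cells. Only 4 or 5 of the 10 markers read at least 200 on each progenitor array. Gfap and others passed the filter only through oligodendrocyte arrays, so their direction was fixed by the filter and the count of 9 says little. Between knockout and control cells 0 of 9 passed, against 3.64% of all genes higher and 3.88% lower. With the replicate block 6 of 9 were higher and 0 lower, against 13% and 9.24% of all genes. The mean of the 6 progenitor markers was 11.3 to 11.5 in knockout, 10.57 to 10.98 in control and 12.2 to 12.7 in progenitor arrays. Of these, Vcan was higher in knockout than in control cells (2.04; limma, adjusted p = 0.00172), whereas Pdgfra, the receptor used for selection, lay the other way without passing (−0.75; adjusted p = 0.238). The Vcan value was singled out after it was seen. Of the markers of mural cells and fibroblasts, 3 of 9 were tested and 2 were higher in knockout than in control cells (3.64% of all genes were). Astrocytes express Id genes, and the part of these markers in the Id differences was not tested.

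**Figure D4:**
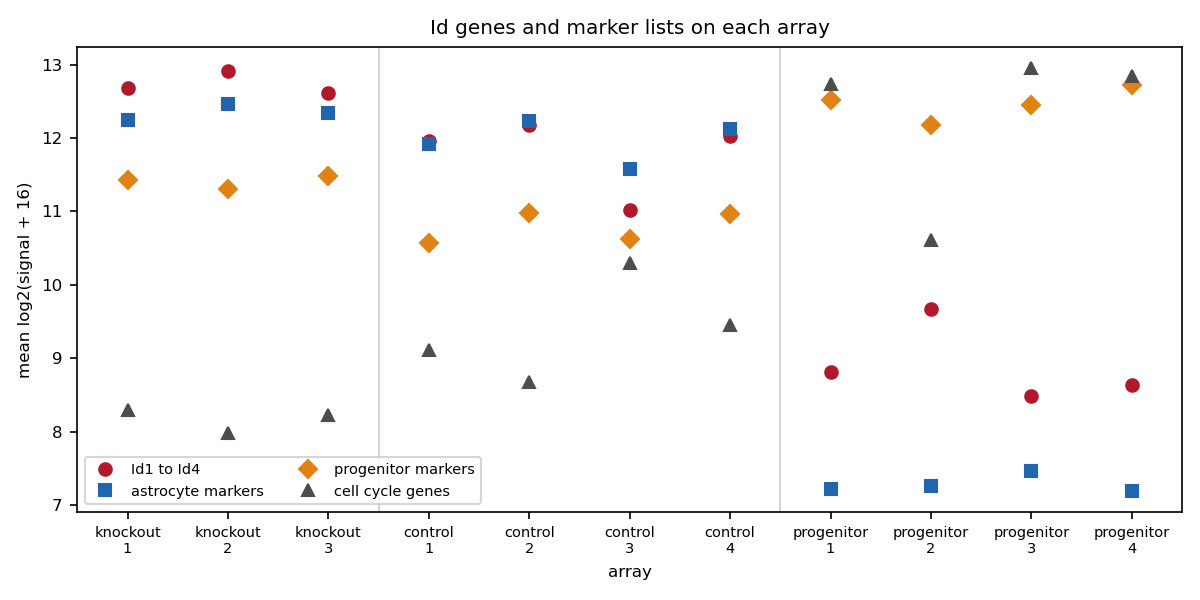
Mean log2(signal + 16) of Id1 to Id4, astrocyte markers, progenitor markers and cell cycle genes on each of the 11 arrays, 1 point per list and array; vertical lines separate the groups. Control array 3 is the lowest oligodendrocyte array for the Id genes, at 11.03, and the highest for cell cycle genes, at 10.3.

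Among other genes with a helix-loop-helix domain, 34 of 53 listed were tested. In the fit of all arrays 7 were higher and 0 lower in knockout than in control cells, against 3.64% and 3.88% of all genes. The median difference of the 34 was 0.38, against 0.03 over all genes. With the replicate block 10 were higher and 2 lower, against 13% and 9.24% of all genes. The count in the fit of all arrays fell to 1 without any 1 of the knockout arrays, and to 2, 3 and 2 without control arrays 1, 2 and 3. Hif1a, the oxygen-regulated factor, read 9066 to 11326 on knockout and 5364 to 5892 on control arrays, a log2 difference of 0.89 ± 0.13 (limma, adjusted p = 0.00175). Heyl, a repressor downstream of Notch, averaged 253 ± 61.9 (SD, n = 3) in knockout and 53.6 ± 18.3 (SD, n = 4) in control cells, a difference of 1.97 (adjusted p = 0.004), and it passed the filter only through the 3 knockout arrays. Ncoa1, a coactivator of nuclear receptors, differed by 0.60 (adjusted p = 0.0287). Hes5 and Hes6 did not pass (adjusted p = 0.266 and 0.652), and Hes1 was under the filter, at means of 134, 84.7 and 149 in knockout, control and progenitor cells.

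Against progenitors, 11 of the 34 were higher and 5 lower in control cells, and 13 were higher and 3 lower in knockout cells. The shares over all genes were 24.4% and 29.6% in control cells and 23.8% and 26.8% in knockout cells. The hypoxia-regulated Epas1 (4.32; limma, adjusted p = 2.16e-06), Mitf (1.81; adjusted p = 5.52e-05) and the Notch target Hey1 (1.57; adjusted p = 0.000152) led the higher genes in control cells by adjusted p. Hif1a (−0.92; adjusted p = 0.000122), the growth regulator Myc (−0.83; adjusted p = 0.00401) and the coactivator Ncoa2 (−0.85; adjusted p = 0.00512) led the lower ones. In knockout cells the same 3 genes led the higher side, at 4.86 for Epas1, 2.72 for Mitf and 2.45 for Hey1, and the lower genes were Myc (−0.96), Ncoa2 (−0.62) and Ncoa3 (−0.73). The difference of Hif1a there was −0.03 (adjusted p = 0.865).

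The BMP and Smad pathway, which acts on Id genes, had 16 of 26 listed genes tested. In the fit of all arrays 1 was higher and 0 lower in knockout than in control cells, with a median of 0.32. Over all genes 3.64% were higher and 3.88% lower. With the replicate block 5 were higher and 2 lower, against 13% and 9.24% of all genes. The gene that passed was Ski, a corepressor of Smad proteins (0.75; limma, adjusted p = 0.0278), and it did not pass without knockout array 1 or 2 or without control array 2, 3 or 4. The ligand gene Bmp4 read 4679, 6438 and 6835 on knockout arrays, 614, 820.8, 433.1 and 1268 on control arrays, and 10.5, 3614, 120.5 and 23.5 on progenitor arrays. All knockout arrays were above all others, and progenitor array 2 stood far above the other progenitors. Its knockout minus control difference was 3.00 ± 1.26 (limma, adjusted p = 0.191), and 3.26 with the replicate block (adjusted p = 0.000684), which is 9.57-fold. The inhibitory Smad7 averaged 276 ± 56.5 (SD, n = 3) in knockout and 1032 ± 839 (SD, n = 4) in control cells (difference −1.59, limma adjusted p = 0.0618; −1.78 and 0.0316 with the replicate block).

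Against progenitors, 4 BMP and Smad genes were higher and 5 lower in control cells, and 6 were higher and 2 lower in knockout cells, of 16 tested. Over all genes 24.4% were higher and 29.6% lower in control cells and 23.8% and 26.8% in knockout cells, so the control counts lie near the background. The receptor gene Bmpr1b had 551 ± 197 (SD, n = 4) in control cells and 52.0 ± 21.1 (SD, n = 4) in progenitors, a difference of 3.04 (limma, adjusted p = 1.45e-05). Smad7 (2.37; adjusted p = 0.000882) and the ubiquitin ligase gene Smurf1 (1.09; adjusted p = 0.000944) were also higher. The shared Smad4 (−0.90; adjusted p = 0.000154), the ligand gene Bmp7 (−3.12; adjusted p = 0.000432) and the receptor gene Acvr2a (−1.42; adjusted p = 0.00143) were lower. In knockout cells Bmpr1b (3.81), Ski (0.97) and Bmp6 (2.91) led the higher side, and Bmp7 (−3.21) and Smad4 (−0.66) were the 2 lower genes. The higher Id1, Id3 and Id4 stood beside higher and lower members of this pathway in the same arrays.

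Of 23 listed partners and cofactors of Olig and E proteins, 21 were tested. Between knockout and control cells 3 were higher and 0 lower, the homeodomain gene Nkx2-2 (1.71; limma, adjusted p = 0.0354) and the Sox genes Sox5 (1.80; adjusted p = 0.0126) and Sox6 (1.44; adjusted p = 0.0368), with a median of 0.26 over the list. Over all genes 3.64% were higher and 3.88% lower in the fit of all arrays. With the replicate block 7 were higher and 2 lower, against 13% and 9.24% of all genes. The 3 became 0 without knockout array 2 or 3, and 1 without knockout array 1 or control array 1 or 3. Against progenitors, 3 were higher and 10 lower in control cells and 5 higher and 7 lower in knockout cells, of 21 tested. Over all genes 24.4% were higher and 29.6% lower in control cells, and 23.8% and 26.8% in knockout cells. In control cells the higher genes were Nkx6-2 (3.56; adjusted p = 4.35e-05), the adaptor gene Lmo2 (2.14; adjusted p = 0.0155) and Tcf7l2 (1.75; adjusted p = 0.0224). Of the named higher genes, Epas1, Bmpr1b, Bmp6, Nkx6-2 and Lmo2 read under 200 on all progenitor arrays and passed the filter only through oligodendrocyte arrays. The histone deacetylase gene Hdac2 (−0.97; adjusted p = 0.000138), the chromatin remodeller gene Chd7 (−1.48; adjusted p = 0.000169) and Sox6 (−1.87; adjusted p = 0.000977) led the lower ones. In knockout cells Nkx6-2 (2.65), Sox5 (1.46) and Tcf7l2 (2.37) led the higher genes, and Chd7 (−1.50), Hdac2 (−0.93) and Smarca4 (−0.95), the remodelling ATPase gene, the lower ones.

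For each gene the 2 genes with the most similar profile were found among 10068 others, by the mean absolute difference of log2 signals centred on each gene's own mean over the 11 arrays. Olig1 lay nearest to the ribosomal protein gene Rpl7a (0.052) and the chaperone gene Hspa8 (0.052). Olig2 lay nearest to Atp23 (0.113) and Ciz1 (0.113). Of the E protein genes, Tcf4 was nearest to Tsc22d1 (0.092) and Ctdsp2 (0.121), Tcf12 to Spopl (0.073) and Phf14 (0.079), and Tcf3 to Ppp2r5d (0.107) and Nup188 (0.192). The nearest genes to Id1 were Colgalt2 (0.235) and Plscr2 (0.373), and those to Id4 were Plscr2 (0.20) and the glutamate receptor gene Gria1 (0.272), so Plscr2 stood beside both. Id2 lay nearest to Cetn4 (0.138) and Slc18b1 (0.141), and Id3 to Inppl1 (0.275) and S100b (0.281), the latter a marker of the astrocyte list. These distances are descriptions over 11 arrays in 3 groups, in which any genes with like group means lie close together.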

How the data were processed

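RNA was labelled in a two-cycle protocol from 1 µg and hybridised to Mouse Genome 430 2.0 arrays, per the labels' protocols. The deposited values are intensities, the linear signals that the authors computed with MAS 5.0 in GCOS 1.3 and scaled to a target of 500, per the submitters' processing notes. The trimmed mean (2% at each end) was 500 on all 11 arrays. The precision is limited by the number of arrays.

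From these values log2(signal + 16) was taken and probe sets with at least 200 on at least 3 arrays were kept (18568). A gene was represented by its brightest kept probe set with a single gene symbol (10069 genes). Of 45101 probe sets, 34958 had 1 symbol, 932 several and 9211 none. The main test was limma 3.58.1 in R 4.3.3 with a mean per group over all 11 arrays, trended moderated variance and Benjamini-Hochberg adjustment at 0.05. Fold changes are on the log2(signal + 16) scale and understate those of dim genes. Deviations of knockout and control arrays with the same replicate number correlated at 0.242, 0.241 and 0.214, so the numbers were taken to pair them, although knockout array 3 correlated more with control array 4 (0.328). The corresponding values for progenitors were −0.069, 0.193, 0.111 and 0.073 with controls and −0.117, 0.033 and −0.079 with knockout arrays, which does not pair them. No 2 arrays were identical.

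Members and gene lists were chosen with earlier results of these data known. Named were all members and their probe sets, up to 3 called genes per direction, list and comparison by adjusted p, Hes1, Hes5, Hes6, Bmp4, Smad7, Myrf, 4 markers and the 2 nearest genes of each member. S100b was named by the last of these. Mag, Mobp and Mog were named as the oligodendrocyte markers that passed between knockout and control cells. The scripts were tested on simulated data. Alternatives were another pseudocount, other filters, quantile normalization, the mean of probe sets, array weights, no variance trend, the 2 compared groups alone, the replicate block and leaving out arrays. Removal of progenitor arrays 1 and 4 together was chosen after seeing the data.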

Additional observations from a re-analysis of the deposited data

Results flagged for a closer look

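In 5 of 40 groups of 4 arrays examined, 1 array lay far from the others by Dixon's criterion at 95%, which chance alone gives in about 1 of 20 groups. On progenitor array 4 the signal of Tcf12 1427670_a_at was 16751 and that of Tcf12 1439619_at was 426, each the highest of its group. For Tcf3 1426297_at, control array 1 read 572.6 and progenitor array 1 read 1850. For Id1 1425895_a_at, progenitor array 2 read 428.9. That array also had the highest Id3 signal and the lowest cell cycle genes of the progenitors.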

How the results depend on the processing

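Between knockout and control oligodendrocytes, the count of the 9 genes that passed rose from 0 to 1 after quantile normalization, 1 with the mean of probe sets, 2 in the fit of the 2 compared groups, 4 with array weights and 5 with the replicate block. Leaving out single arrays gave 0 to 2. Of the 20 probe sets, 0 passed in the fit of all arrays, 1 after quantile normalization, 7 in the fit of the 2 compared groups, 10 with array weights and 12 with the replicate block. Leaving out single arrays gave 0 to 1, and leaving out progenitor arrays 1 and 4 gave 2. The count over all genes was 758, against 2237 with the replicate block, 1587 in the fit of the 2 compared groups, 2160 with array weights and 1315 without progenitor array 2, and it lay between 348 and 1315 when single arrays were left out. Why the other fits pass more genes was not tested. The 8 called genes between control cells and progenitors ranged from 6 to 9 over all alternatives, and the 6 between knockout cells and progenitors from 5 to 7. The replicate block, which does not pair these arrays, stayed within those ranges.

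The sign of the small Tcf12 difference between knockout and control cells (−0.016) turned after quantile normalization (0.056), with the replicate block (0.037) and with array weights (0.042), and ranged from −0.11 to 0.073 when single arrays were left out. Against progenitors, signs in knockout cells turned for Olig2 after quantile normalization (0.011), for Tcf4 after quantile normalization (0.030) and with the mean of probe sets (0.0053), and for Tcf3 with the mean of probe sets (0.13). None of these differences passed on either side. Quantile normalization moved the median of all genes by −0.04, −0.02 and −0.05 in the 3 comparisons. Array number, and on progenitor arrays 1 and 4 the shortened labelling seen in the 5′ to 3′ ratios, limit all comparisons.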
